A study of Mus musculus with 20 samples.

Results

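The genes described here are 10 named genes of the pigment cell and its growth factor: the Kit ligand gene Kitl, the receptors Kit and Ednrb, the transcription factors Mitf and Sox10, the melanin enzymes Dct, Tyr and Tyrp1, and the melanosome proteins Pmel and Mlana. They were taken by gene name from a table of 53380 genes measured by bulk RNA sequencing in cells sorted from mouse dorsal epidermis. The rule uses gene names only, although the genes were proposed with earlier results of these data known. Of the 10 genes, 8 passed the filter on low values that left 17204 genes to test, while Mlana and Sox10 did not.

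The 20 libraries came from 5 sorted populations. Hair follicle stem cells (HFSCs, α6+Sca1-CD34+) had 4 libraries, and dendritic epidermal T cells (DETCs, α6-Sca1lowThy1+), the γδ T cells that live in the epidermis, had 5. Basal keratinocytes of the interfollicular epidermis were split into Thy1hi (α6+Sca1+Thy1hi, n = 4) and Thy1- (α6+Sca1+Thy1-, n = 4) cells, and Thy1hi cells carrying a YFP mark (YFP+, n = 3) were sorted separately. The labels give the genotype Thy1.2CreERT2-Rosa26-EYFP and no treatment for every library, whereas the methods of the study describe wild-type mice for the unmarked populations and tamoxifen-induced Thy1-CreERT2;R26EYFP mice for the YFP+ cells, in which the Thy1 promoter drives the recombinase. The cell type label of the YFP+ libraries reads Sca1-negative, while their titles give Sca1 no sign. The labelled age rises by a week from library to library, from 8 to 27 weeks, so that labelled age and population cannot be told apart, and the methods give a single age for the sort. Mice may have been pooled, and the labels do not say that the libraries of a population came from separate animals, so that p-values here measure the spread between libraries, which may be technical.

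Melanocytes make melanin inside melanosomes and, in hairy skin, reside mainly in the hair follicle, where pigment stem cells share the bulge with the hair follicle stem cells. Kit ligand made by keratinocytes signals through the receptor tyrosine kinase Kit on melanocytes and mast cells, and endothelins signal through Ednrb. Sox10 activates Mitf, the transcription factor that switches on the melanin enzymes through a short promoter element called the M-box.

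The libraries held 7781256 to 12982392 reads on genes, of which 13.1% to 41.5% fell on the ribosomal RNA gene Rn45s. All 7 markers of hair follicle stem cells were higher in HFSCs than in Thy1hi cells, where 13.4% of all genes tested were called. Against Thy1- cells 6 of the 7 were. All 8 DETC markers were higher in DETCs than in Thy1hi cells, where 36.6% of all genes were called. The lists include Cd34 and Thy1, which the sort used, and genes that the paper reported for these populations. They are therefore no independent check of identity. In bulk RNA, fewer cells of a type and less RNA per cell cannot be told apart. Among the libraries, 3 stood apart. HFSC replicate 4 had the lowest share of Rn45s and a summed level of 8 Langerhans cell markers of 502 against 4129 to 6887 in the other HFSC libraries. DETC replicate a had a summed level of 6 basal keratinocyte markers of 9979 against 33606 to 46198 in the other DETC libraries. YFP+ replicate 3 had a summed level of fibroblast markers of 11071 against 1935 and 2276 in the other YFP+ libraries. A single marker can carry such a sum. Over the 7 tested fibroblast markers the median log2 difference of YFP+ minus Thy1hi cells was -2.08, and 0 were called. The columns of DETC replicates a and b carry numbers that match no sample title, so they could not be assigned to a sample.

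Mitf was higher in HFSCs and Kit higher in DETCs than in every other population they were compared with, and Kitl was lower in both HFSCs and DETCs than in Thy1hi keratinocytes. A gene was called where its Benjamini-Hochberg adjusted p from limma, over all genes tested, was under 0.05. HFSCs against Thy1hi cells gave 5 calls among the 8 tested genes (Mitf, Dct, Tyrp1 and Pmel higher, Kitl lower), where 13.4% of all genes tested were called. HFSCs against Thy1- cells gave 2 calls (Mitf and Dct, both higher), with 6.08% of all genes. DETCs against Thy1hi cells gave 4 calls (Kit, Tyrp1 and Dct higher, Kitl lower), with 36.6% of all genes. DETCs against HFSCs gave 2 calls (Kit higher, Mitf lower), with 39.7% of all genes. The shares of the 8 genes were thus 62.5% and 25.0% for HFSCs against the keratinocytes, and 50% and 25.0% for DETCs, the last of these below its background. DETCs against Thy1- cells gave 2 calls (background 34.1%), DETCs against YFP+ cells 4 (38.1%) and YFP+ cells against HFSCs 3 (11.6%), where edgeR called 4 (background 11.3%) and DESeq2 called 5 (16%), while YFP+ against Thy1- cells gave 0 (0.761%). Neither Thy1hi against Thy1- cells (background 0.337%) nor YFP+ against Thy1hi cells (background 0.0116%) gave a call.

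**Figure D1:**
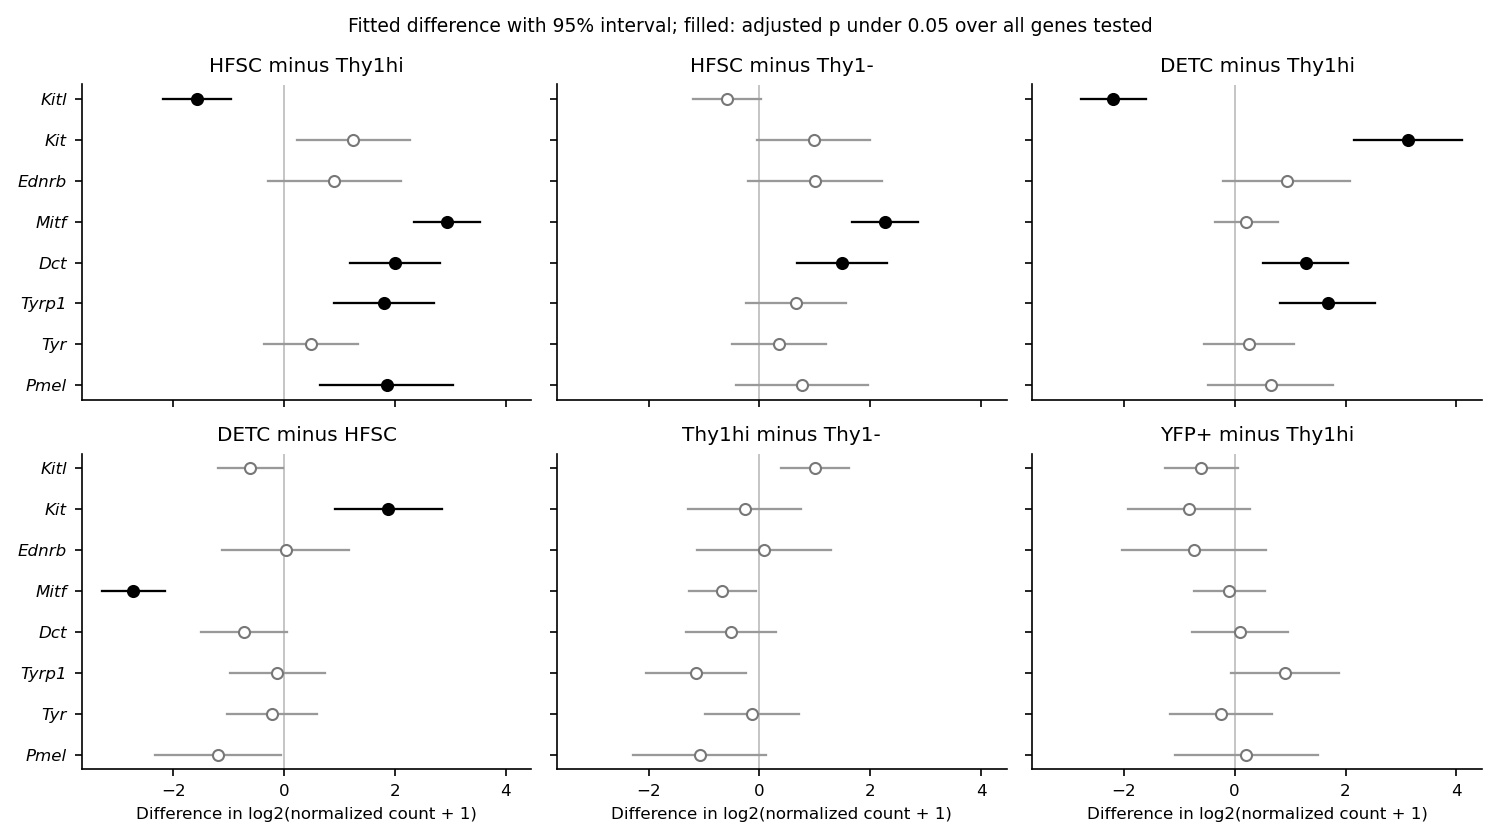
Fitted difference of each of the 8 tested genes in 6 comparisons, on the log2(normalized count + 1) scale, with 95% intervals from limma. Filled points passed an adjusted p of 0.05. Mitf lies 2.93 above 0 in HFSC minus Thy1hi and Kit 3.13 above 0 in DETC minus Thy1hi, and no point is filled in the 2 comparisons among keratinocytes.

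Kitl encodes Kit ligand, the growth factor also called stem cell factor. The gene lies at chr10:100015630-100100416 (mm10) on the forward strand. Its normalized read counts in Thy1hi cells were 359, 399, 515 and 256. YFP+ cells had 227, 210 and 305. Thy1- cells had 187, 216, 246 and 119. All keratinocyte libraries but replicate 4 of the Thy1- cells were above every HFSC and DETC library. HFSCs had 115, 133, 134 and 114, a narrow range. DETCs had 83.2, 94.6, 83.0, 39.8 and 131, with the lowest value in replicate a, the library with the fewest keratinocyte marker reads. The part of keratinocyte RNA in the DETC values was not tested.

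Kitl was lower in HFSCs than in Thy1hi cells by a log2 difference of -1.58 ± 0.29 (SE, limma adjusted p = 0.00102), an HFSC mean 0.324 times the Thy1hi mean, and no library overlapped. It was lower in DETCs than in Thy1hi cells by -2.19 ± 0.28 (adjusted p = 2.83e-06), again without overlap, and by -1.94 without DETC replicate a. Against Thy1- cells the DETC difference was -1.19 (limma adjusted p = 0.00223, background 34.1%) with overlapping libraries. Between Thy1hi and Thy1- cells Kitl differed by 0.99 ± 0.29 with a 95% interval of 0.38 to 1.61. The lowest Thy1hi value, 256, was above the highest Thy1- value, 246, and the exact two-sided permutation p was 0.0286, the smallest that 4 against 4 libraries allow. The limma adjusted p of 0.226 missed the threshold, while with the replicate number as a block it was 0.00109, where 6.61% of all genes were called, and DESeq2 gave 0.0442 (background 1.22%). Libraries of these populations that do not overlap were found for 6.77% of all genes. HFSCs and Thy1- cells overlapped (adjusted p = 0.230). YFP+ cells did not overlap with HFSCs, with 1.999 times their mean (YFP+ minus HFSC, 0.98 ± 0.32, exact two-sided permutation p = 0.0286, the smallest possible here). The limma adjusted p was 0.0503, and those of edgeR and DESeq2 were 0.0386 and 0.0152, so this call turned on the tool. In DETCs minus HFSCs Kitl gave -0.61 (adjusted p = 0.0907), and -0.54 with the replicate block (adjusted p = 0.0384, background 42.1%). The 3 same-numbered pairs decide the blocked value. Without DETC replicate a the difference was -0.36.

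The 30 bases around a TATA box upstream of the RefSeq start site of Kitl are shown because Kitl is the only one of the 7 members with a promoter entry that holds this element close before the start. The TATA box, in capitals, begins 25 bases before the RefSeq start (GRCm38.p6, chr10:100015784-100015813, forward strand). GENCODE M21 counts all 30 bases as exon, because its gene begins further upstream.
Kitl: gggagggagctgTATAAAaagcgctggcgg
The letters TATAAA, searched on both strands, occur in 12.4% of the 32851 RefSeq promoter windows of 250 bases before a start site, so the match is common. Tyr and the third RefSeq start of Mitf also hold it, further from the start.

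Kit, the receptor for Kitl, lies at chr5:75574916-75656722. It was highest in DETCs, with normalized counts of 136, 85.4, 65.6, 192 and 94.9, each above every other library of the series. HFSCs had 26.6, 17.4, 40.6 and 34.3. Thy1hi cells had 9.94, 19.8, 4.88 and 16.5, and Thy1- cells had 9.73, 18.5, 7.89 and 25.4. YFP+ cells had 4.98, 13.2 and 2.97. The keratinocyte populations overlapped each other throughout.

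The DETC mean was 8.99 times the Thy1hi mean, a log2 difference of 3.13 ± 0.46 (limma adjusted p = 1.89e-05). It was 3.86 times the HFSC mean, a difference of 1.88 ± 0.46 (adjusted p = 0.00296). Without DETC replicate a, which held the highest Kit value, the differences were 2.92 and 1.67 (adjusted p = 7.47e-05 and 0.0104). HFSCs against Thy1hi cells gave 1.25 ± 0.49 and overlapping libraries (adjusted p = 0.0995), and against YFP+ cells Kit was higher in HFSCs (YFP+ minus HFSC, -2.08 ± 0.53, adjusted p = 0.0130), a call that was lost without YFP+ replicate 1 or 3 (0.0567 and 0.102), with quantile normalization (0.0573) and with only both populations in the fit (0.0680). Mast cells also bear Kit. The 10 mast cell markers summed to 11.8 to 22.4 normalized counts in DETC libraries and to 21.1 to 31.6 in Thy1hi libraries, and Cpa3, Mcpt4, Cma1 and Tpsb2, which encode mast cell proteases, had 0 reads in every DETC library. Cpa3 had 0 reads in all other populations too, and Tpsb2 in all but Thy1- cells, while the remaining markers supplied the DETC sums. The part of mast cells in the Kit differences was not tested.

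**Figure D2:**
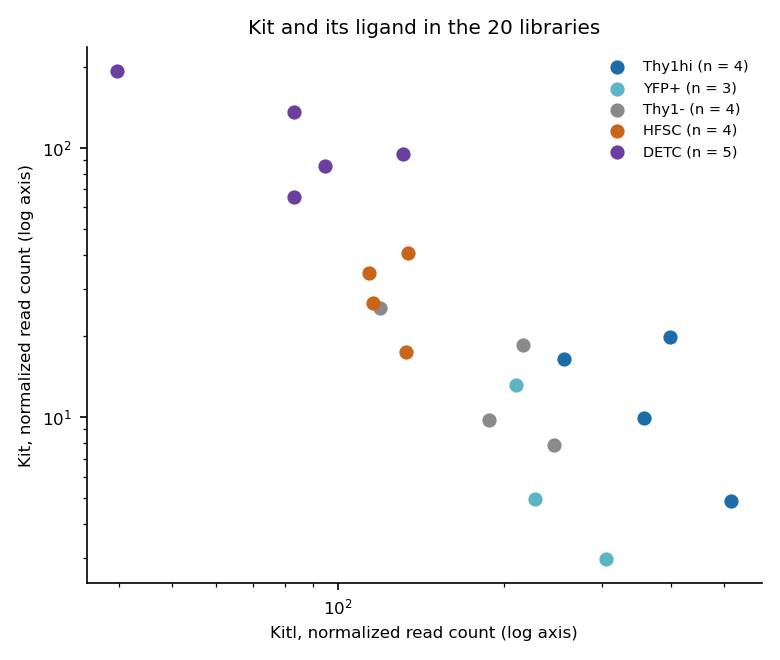
Normalized read counts of Kit (vertical, log axis) against Kitl (horizontal, log axis) in the 20 libraries, coloured by population. The 5 DETC libraries lie at the top left, between 65.6 and 192 for Kit, and the Thy1hi libraries at the bottom right, between 256 and 515 for Kitl.

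Over the 20 libraries the log2 values of Kit and Kitl had a Pearson r of -0.843, and of -0.636 after the mean of each population was subtracted. The libraries share 5 populations and the same scaling, so this is a description of the table. In the plot of Kit against Kitl, DETCs have the highest Kit and the lowest mean Kitl, while Thy1hi cells have a higher mean than YFP+ cells for both genes.

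Ednrb, the endothelin B receptor (chr14:103814625-103844402, reverse strand), was low in every population. Its normalized counts were 13.9, 6.52, 33.1 and 12.6 in HFSCs and 14.7, 22.4, 14.2, 17.8 and 7.21 in DETCs. Keratinocyte libraries ranged from 1.58 to 14.8. The highest value was that of HFSC replicate 3. The populations overlapped except that YFP+ cells (2.99, 3.10 and 5.94) lay below every DETC and HFSC library. Of all comparisons between populations, DETCs against YFP+ cells gave the only Ednrb call (1.67 ± 0.60, limma adjusted p = 0.0328, where 38.1% of all genes were called), and it was lost in 4 of 8 fits that left out a library, those without DETC replicate 2 or a or YFP+ replicate 1 or 2 (0.0608 to 0.109), as well as with no filter (0.0796) and with quantile normalization (0.138).

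**Figure D3:**
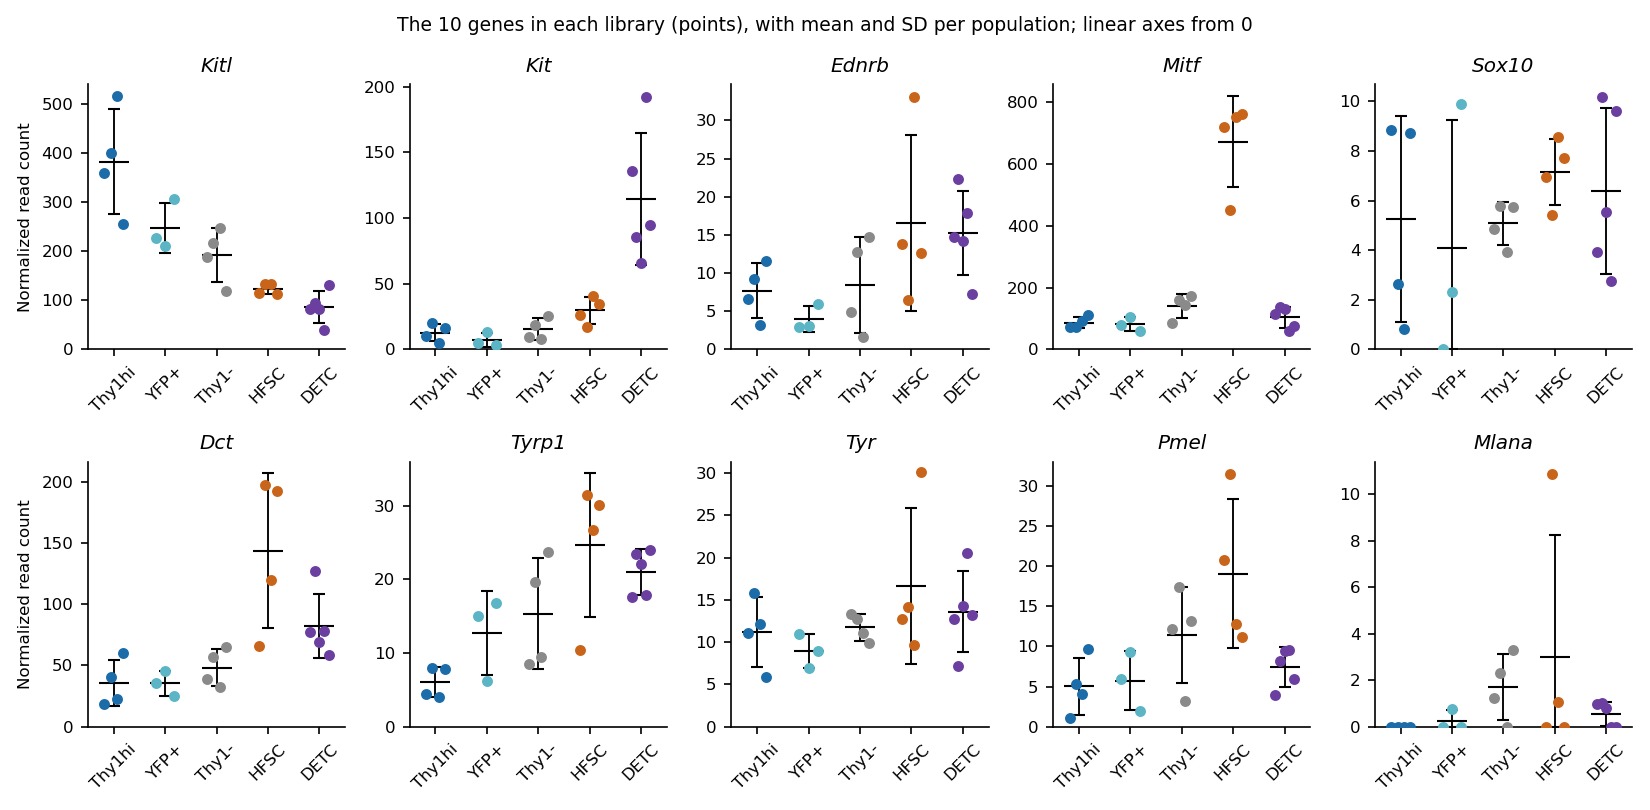
Normalized read counts of the 10 genes, 1 panel each on a linear axis from 0, with a point for each library and a bar for the mean and SD of each population. The 4 HFSC libraries lie at 453 to 762 in the Mitf panel and the 5 DETC libraries at 65.6 to 192 in the Kit panel, apart from all other libraries, whereas the Tyr and Sox10 panels show overlap among all 5 populations.

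Mitf, the regulator of the pigment programme, has several start sites and is also made outside pigment cells. It lies at chr6:97807052-98021349 on the forward strand. HFSCs had 720, 453, 754 and 762 normalized counts. Thy1hi cells had 71.8, 72.4, 91.9 and 112. Thy1- cells had 86.4, 161, 144 and 171. DETCs had 114, 137, 132, 60.4 and 75.7, and YFP+ cells had 79.7, 106 and 60.4. Every HFSC library was above every other library, and the lowest, replicate 2, was still above the highest of the others.

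The HFSC mean was 7.74 times the Thy1hi mean and 4.78 times the Thy1- mean, with log2 differences of 2.93 ± 0.29 and 2.26 ± 0.29 (limma adjusted p = 1.15e-06 and 5.06e-05). DETCs were lower than HFSCs by -2.72 ± 0.27 (adjusted p = 1.04e-07), and YFP+ cells by -3.02 ± 0.31 (adjusted p = 3.15e-06), or by -2.83 without YFP+ replicate 3. Without HFSC replicate 4 the first pair of differences was 2.86 and 2.19. In Thy1hi against Thy1- cells Mitf gave -0.67 ± 0.29 with overlapping libraries and an adjusted p of 0.573, and of 0.0493 with the replicate block. DETCs minus Thy1hi cells gave 0.21 (95% interval -0.36 to 0.78) and no call.

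The counts are per gene and do not tell the start sites of Mitf apart. RefSeq gives 3 start sites in the promoter table, and the third holds a cyclic AMP response element, shown in capitals because such an element is known from the melanocyte promoter of Mitf. It begins 153 bases before that start (chr6:97991619-97991648, forward strand), inside the span of the gene, and GENCODE M21 counts 0 of the 30 bases as exon.
Mitf: gaaaaaaagcaTGACGTCAagccagcaggg
The 8 letters TGACGTCA read the same on both strands and occur in 1.55% of the promoter windows. No other member held them in its windows.

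Sox10 (chr15:79154913-79164490), which marks melanocytes and Schwann cells, did not pass the filter. It had 6.93, 5.43, 8.55 and 7.71 normalized counts in HFSCs, and 0 to 10.2 in the other libraries. All populations overlapped, with means from 4.08 in YFP+ cells to 7.16 in HFSCs. The 10 Schwann cell markers summed to 686 to 2064 in HFSCs, 1640 to 1810 in DETCs, and 1702 to 2066 in Thy1hi cells.

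The melanin enzymes are related metal-binding membrane proteins. Tyr, tyrosinase, begins melanin synthesis, and Dct and Tyrp1 act on later intermediates of eumelanin. Their promoters are shown because all 3 hold the M-box, the element bound by Mitf, here as the letters GTCATGTGCT in capitals. These 10 letters are the longest run that the 3 promoter windows share. Positions count back from the RefSeq start (GRCm38.p6).
Tyr: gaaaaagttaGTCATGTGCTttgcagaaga
Tyrp1: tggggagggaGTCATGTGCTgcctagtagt
Dct: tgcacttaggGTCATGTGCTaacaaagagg
The element began 23 bases before the start in Tyr (chr7:87493516-87493545, reverse strand), 48 in Tyrp1 (chr4:80834155-80834184, forward strand) and 152 in Dct (chr14:118052379-118052408, reverse strand). GENCODE M21 places the Tyrp1 bases in an exon and the Tyr and Dct bases in none. Searched on both strands, the 10 letters occur in 51 of 32851 promoter windows, which is 0.155%, while their core CATGTG, which lies inside every M-box match, occurs in 12.3%. A match is a description of the letters and no measure of binding. Kit, Ednrb, Kitl and Mitf held no M-box in their windows, and Pmel, Mlana and Sox10 had no entry.

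Dct (chr14:118012790-118052244) had 65.8, 198, 120 and 193 normalized counts in HFSCs. DETCs had 77.3, 127, 69.6, 78.2 and 58.9. Thy1hi cells had 18.8, 40.8, 22.8 and 60.2, Thy1- cells had 38.9, 56.7, 32.3 and 64.8, and YFP+ cells had 35.9, 45.7 and 24.8. Every HFSC library lay above every keratinocyte library, by a small margin for replicate 1 (65.8 against 64.8). DETCs lay between, and touched both.

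In HFSCs Dct was 4.04 times the Thy1hi mean (2.003 ± 0.388 on the log2 scale, limma adjusted p = 0.00148) and 2.99 times the Thy1- mean (1.49 ± 0.39, adjusted p = 0.0259). The second call was lost in 4 of 8 fits that left out a library, those without HFSC replicate 2 or 4 or Thy1- replicate 1 or 3, with adjusted p of 0.0675 to 0.0930, and with only both populations in the fit (0.0658). In DETCs Dct was higher than in Thy1hi cells (1.28 ± 0.37, adjusted p = 0.00900), although the libraries overlapped. Against YFP+ cells, DETCs did not overlap (1.18 ± 0.40, adjusted p = 0.0243), a call lost without DETC replicate 2 or YFP+ replicate 1 or 3 (0.0585 to 0.126), with the same total per library (0.0532) and with quantile normalization (0.0572).

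Tyrp1 (chr4:80834123-80851719) had 10.4, 31.5, 26.7 and 30.1 in HFSCs and a narrow 17.6, 23.4, 22.1, 17.8 and 24.0 in DETCs. Thy1hi cells had 4.42, 7.90, 4.06 and 7.76, the lowest of the 5 populations by mean. Thy1- cells had 8.51, 19.7, 9.47 and 23.8, and YFP+ cells had 15.0, 6.19 and 16.8. Tyrp1 was higher than in Thy1hi cells in HFSCs (1.81 ± 0.43, limma adjusted p = 0.00767) and in DETCs (1.68 ± 0.41, adjusted p = 0.00270), without overlap in either. Every Thy1- library was also above every Thy1hi library (log2 difference -1.14 ± 0.43, exact two-sided permutation p = 0.0286), but the adjusted p was 0.453, and 0.0992 with the replicate block. Against Thy1- cells the libraries overlapped and Tyrp1 was not called in HFSCs (0.66, limma adjusted p = 0.353) or in DETCs (0.54, 0.347).

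Tyr (chr7:87424771-87493512) gave no call. Its normalized counts were 12.7, 14.1, 9.62 and 30.1 in HFSCs, with the highest in replicate 4, and 5.82 to 20.6 in the other populations. The 95% interval for HFSCs minus Thy1hi cells was -0.37 to 1.33. Whether Tyr differs from Dct and Tyrp1 in this was not tested.

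Pmel, the protein of the melanosome fibrils (chr10:128704195-128720238), had 20.8, 31.5, 12.8 and 11.2 normalized counts in HFSCs. Thy1hi cells had 1.1, 5.27, 4.06 and 9.70, below every HFSC library. Thy1- cells had 12.2, 17.4, 3.16 and 13.1, DETCs had 3.91, 8.14, 9.49, 9.60 and 6.0, and YFP+ cells had 5.98, 9.29 and 1.98. Pmel was higher in HFSCs than in Thy1hi cells (1.85 ± 0.57, limma adjusted p = 0.0367), a call that held in only 3 of 8 fits that left out a library and was lost without HFSC replicate 1 or 2 or Thy1hi replicate 1, 2 or 3 (0.0571 to 0.146). It was also lost with a pseudocount of 0.1 (0.0508), no filter (0.0916) and only both populations in the fit (0.0728). In DETCs against HFSCs the libraries did not overlap (-1.20 ± 0.54), with an adjusted p of 0.0869. It was 0.0491 with only both populations in the fit, 0.0456 with DESeq2 and 0.0303 with a pseudocount of 10. With the replicate block it was 0.0420, again from the 3 same-numbered pairs. Exons of Pmel share 34 bases with Cdk2 and 105 bases with Dgka on the opposite strand, 1.48% and 4.58% of its exon length, and the strand setting of the counting is not given in the sources used here, so reads there are uncertain.

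Mlana (Melan-A, chr19:29697921-29708448), a melanosome protein, was near the limit of detection. It had 0 reads in all 4 Thy1hi libraries, which allows up to 3 reads in each, and at most 3.28 normalized counts in any other library except HFSC replicate 2, which had 10.9 from 10 reads. The other HFSC libraries had 0, 1.07 and 0. HFSC replicate 2 was also the highest HFSC library for Dct and for Tyrp1 and Pmel (31.5 each), and the lowest for Mitf, Ednrb, Kit and Sox10. The limit of 3 reads covers counting error only.

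Compared with each other per length, Mitf and Kitl had the highest levels of the genes in the population where each was highest. As mean normalized counts per kilobase of exon, Mitf reached 109 in HFSCs and 13.2 to 22.7 elsewhere, and Kitl ran from 64.7 in Thy1hi cells to 20.9 in HFSCs and 14.6 in DETCs. Dct had 24.4 in HFSCs, above Kitl there, 13.9 in DETCs and 6.01 to 8.17 in keratinocytes. Kit was at 12.9 in DETCs and at 3.34 or less elsewhere. Tyr, Ednrb and Sox10 reached at most 2.34, 3.87 and 2.35, all in HFSCs, and Tyrp1 and Pmel 8.73 and 8.32.

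**Figure D4:**
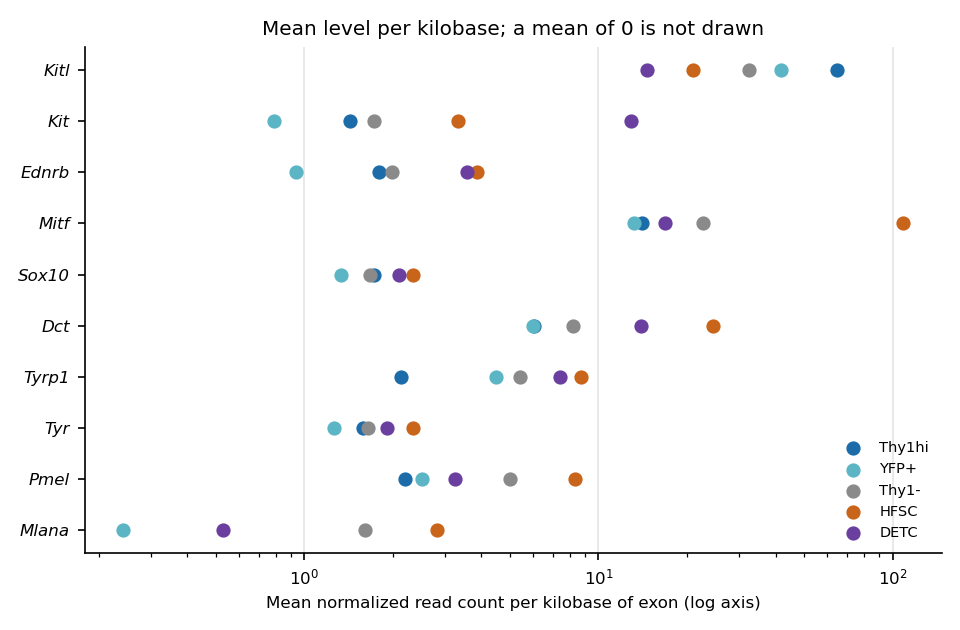
Mean normalized read count per kilobase of exon (log axis) of each gene in each population. HFSCs are the rightmost point in all rows but Kitl and Kit, with 109 for Mitf, while DETCs lead for Kit (12.9) and Thy1hi cells for Kitl (64.7). The Mlana mean of 0 in Thy1hi cells is not drawn.

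By mean level, HFSCs were first for 8 of the 10 genes, DETCs for Kit and Thy1hi cells for Kitl. Neighbours in these orders mostly could not be told apart. Of 40 neighbouring pairs of populations, 32 were tested, and only Mitf in HFSCs over Thy1- cells and Kit in DETCs over HFSCs were called, which were also the only neighbours without overlap, where 13.6% and 32.5% of all genes did not overlap. For Kitl the order Thy1hi, YFP+, Thy1-, HFSC, DETC thus had no step that passed, although its ends differed. For Dct the order HFSC, DETC, Thy1-, Thy1hi, YFP+ likewise had none.

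In Thy1hi against Thy1- cells, limma called 0 of the 8 genes, 3 had an unadjusted p under 0.05 (Kitl, Tyrp1 and Mitf), edgeR called 0 (background 0.256%) and DESeq2 called 1 (Kitl). With the replicate block, Kitl was higher and Mitf lower in Thy1hi cells. The block was used beside the main test because deviations of same-numbered libraries had r of 0.293 to 0.716. Libraries of different numbers reached 0.514, so a pairing is not established. In YFP+ against Thy1hi cells, limma, edgeR and DESeq2 each called 0 (background 0.593% for DESeq2), and 0 had an unadjusted p under 0.05. The 95% interval of the difference was -2.04 to 0.57 for Ednrb and -0.74 to 0.55 for Mitf.

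The genes closest in pattern were named by Pearson r of log2 values over the 20 libraries. Mitf was most like Thsd1 (0.967), Adamtsl4 (0.964) and Grem1 (0.961), with HFSC means of 671, 542 and 1050 normalized counts. Among the genes closest to Kit were Mib2 and Arhgap4 (each 0.944), and Kitl was most like Sox6 (0.946), Il33 (0.940) and Synpo (0.934). For Dct they were Arhgef25 (0.890), Cacnb1 (0.872) and Tnrc6c (0.866), for Tyrp1 Ccdc92 (0.836), Palm (0.813) and P3h1 (0.797), and for Pmel Rundc3a (0.857), Begain (0.851) and Lmtk2 (0.814). Tyr was most like Gm15903 (0.828), Gm37677 (0.820) and Slc38a6 (0.807), and Ednrb most like Acot6 (0.839), Itpripl2 (0.786) and Tmem64 (0.784). Among the members themselves, Dct and Tyrp1 had r = 0.776, and Dct was 4th in the list of Tyrp1. Dct and Pmel had 0.713 and Kit and Ednrb 0.711, while Tyr had at most 0.298 with any other member. These values mix differences between populations with those within them.

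Other pigment cell genes were called in both directions. Of 11, only 5 passed the filter. In HFSCs against Thy1hi cells Mcoln3, an ion channel of endosomes and melanosomes, was higher (2.23, limma adjusted p = 0.0243), Gpnmb, a glycoprotein related to Pmel, was lower (-1.66, adjusted p = 0.0112), and 3 were not called. That is 40.0% of the 5 tested genes against 13.4% of all genes. In DETCs against Thy1hi cells Mcoln3 was higher (2.54), and Gpnmb (-1.48) and Rab38, a small GTPase of melanosome traffic (-1.92), were lower. There 60.0% were called against 36.6% of all genes. Oca2, Slc45a2, Slc24a5 and Gpr143, which act in melanosomes and are largely restricted to pigment cells, had means of 0 to 3.97 normalized counts in all populations. The median difference over the 5 genes in HFSCs was -0.78, beside -0.02 over all genes and 1.53 over the 8 members.

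Among 6 tested signals that reach pigment cells, 3 were lower in HFSCs than in Thy1hi cells and none higher, among them Nrg1 (-2.43) and Ece1, the endothelin-processing enzyme (-1.10), in a comparison with a background of 13.4%. Nrg1 and Ece1 were also lower in DETCs against Thy1hi cells, a comparison with the same control libraries (-2.31 and -1.66). Of 7 other receptors on pigment cells, Ednra (3.46) and Fgfr1 (2.51) were higher and Ngfr (-1.72) lower in HFSCs, 42.9% of the list against 13.4%. In DETCs Fzd4 was higher (4.06) and 4 were lower, among them Met (-2.33), Ngfr (-2.20) and Fgfr2 (-2.17), so that 71.4% were called against 36.6%.

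Of 12 genes that act below Kit, 9 were higher and 1 lower in DETCs than in Thy1hi cells, that is 83.3% against a background of 36.6%. The Src family kinases Lyn (6.12, 1509 against 21.4 normalized counts) and Fyn (5.16) and the adaptor Gab2 (3.36) led, and Socs6, an inhibitor of Kit signalling, was lower (-1.02). Many of these genes also act below other receptors of lymphocytes. In HFSCs 2 were higher, Fyn (1.92) and Pik3r1 (1.69), and Cbl was lower (-0.44), 25.0% of the list against 13.4%.

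Of 21 genes of melanosome formation and transport, which also serve the lysosome-related granules of other cells, 7 were higher and 2 lower in DETCs than in Thy1hi cells, 42.9% against 36.6%. Hps6 (3.90), Lyst (2.84) and Rab27a (1.89), the last 2 needed for the granules of killer lymphocytes, were highest, and Rab32 (-1.63) and Myo5a (-1.36) were lower. In HFSCs Hps3 (1.31) and Lyst (1.20) were higher, and Rab27a (-1.17) and Myo5a (-1.04) lower, 19.0% of the list against 13.4%. Of 10 tested relatives of the members, HFSCs had higher Sox9 (2.07) and lower Tfe3 (-0.81), a factor related to Mitf, 20.0% against 13.4%. DETCs had higher Pdgfrb (2.65) and Flt3l (2.61) and lower Csf1 (-1.15) and Tfe3 (-0.46), 40.0% of the relatives against 36.6%. None of these lists gave a call in Thy1hi against Thy1- or YFP+ against Thy1hi cells.

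Markers of other cells were examined beside the HFSC differences. Fibroblast markers summed to 6732 to 15563 normalized counts in HFSCs and 1246 to 4327 in Thy1hi cells, but 1 of the 7 tested, Postn, which encodes a matrix protein, was higher (10625 against 1958), and Col1a1 and Dcn, genes of the collagen matrix, had means of 135 and 5.76 in HFSCs against 381 and 26.4 in Thy1hi cells. Of 8 Langerhans cell markers 1, Mfge8, was higher, and of 6 tested Schwann cell markers L1cam was higher and Mbp lower. Of 7 Merkel cell markers 3 and of 8 endothelial markers 5 were tested, and none was called in HFSCs against Thy1hi cells. All 6 basal keratinocyte markers were lower in DETCs than in Thy1hi cells (36.6% of all genes called) and 3 of 6 in HFSCs (13.4%). These markers include Itga6 and Ly6a, which encode the α6 and Sca1 of the sort, so the counts are not independent of it. Of 8 markers of differentiated keratinocytes 2 were higher in HFSCs. The part of these cells in the differences of the 10 genes was not tested.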

How the data were processed

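Bulk libraries of sorted cells were made with an mRNA kit or a stranded total RNA kit, per the labels. For the deposited table the authors used STAR (genome build mm10), featureCounts on Ensembl genes and DESeq2 normalization. The deposited signal is whole read counts divided by a size factor (0.729 to 1.43), rounded to 2 decimals. Multiplied back, 100% of low values were whole reads within 0.1. The strand setting, the kit of each library and the samples of the 2 batches are not given in the sources used here, so the batches could not be fitted. The column of Thy1- replicate 4 had 3212 genes in other rows and was put back by gene order, which raised its correlation with the other Thy1- libraries over 1267 moved genes from 0.0563 to 0.935. None of the 10 genes was among them.

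The test took the genes that reached 10 in 3 or more libraries. It was run with limma 3.58.1 (R 4.3.3, lmFit and eBayes with a trend, two-sided) on log2(value + 1), 1 mean per population, all 20 libraries in 1 fit. Fold changes on this scale understate low genes. Adjusted p-values are Benjamini-Hochberg values over 17204 genes. Exact permutation tests used mean log2 values. Their smallest p was 0.0286 for 4 against 4 libraries. edgeR 4.0.16 and DESeq2 1.42.0 on the recovered reads, other pseudocounts, filters and scalings, and leaving out each library were alternatives. So were the row order as deposited and fits of both populations of a comparison alone, with or without a replicate block. The fit was tested on simulated data.

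Same-numbered libraries deviated together for Thy1hi and Thy1- (4 pairs, r of deviations 0.293 to 0.716) and for DETC and HFSC (3 pairs, 0.171 to 0.333). Values with the replicate number as a block are given there where they change a call. Libraries of different numbers had r of -0.65 to 0.514 for Thy1hi and Thy1-, and of -0.318 to 0.371 for DETC and HFSC. These ranges overlap those of the same-numbered pairs, so the values do not establish a pairing. For DETC and HFSC, libraries without a partner add nothing to the blocked value. No other comparison had all same-numbered pairs above 0.1.

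The members and gene lists were chosen with earlier results of these data known. The genes named are the 10 members, the genes of each list called with the highest and lowest differences (at most 3 each way), and for each tested member the 3 genes of highest r. A few genes that this rule names are not reported here. Exon lengths came from GENCODE M21 and promoter sequences from RefSeq (GRCm38.p6), which held 7 of the 10 members. Figures were drawn with matplotlib 3.10.9.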

Additional observations from a re-analysis of the deposited data

Results flagged for a closer look

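In groups of 4 or 5 libraries, a library was singled out where its gap to the nearest library, divided by the range, passed the 95% value of Dixon's test. Chance gives about 1 in 20 groups, and 3 of 39 groups of a member and a population passed. Dct in DETC replicate 2 was 127 normalized counts, with the next highest DETC library at 78.2. Mlana in HFSC replicate 2 was 10.9, with the next at 1.07. Mitf in HFSC replicate 2 was 453, below the next lowest HFSC library at 720. The HFSC library with the highest Mlana is thus the one with the lowest Mitf. The cause was not tested.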

How the results depend on the processing

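Of 233 refits of a called difference under settings other than leaving out a library, 219 kept direction and call, 14 lost the call and none reversed. Of 181 refits that left out a library, 163 kept it and 18 lost it. Other filters, the row order as deposited and fits of both populations alone leave the difference itself unchanged. So does the replicate block where both populations hold the same numbers. Those refits could change only the call and could not reverse a direction. The share of all genes called moved with the setting too and is given as the background, so these counts cannot be read alone. The number of called genes in HFSCs against Thy1hi cells went from 5 to 3 with a mean of at least 50 required (background 18.6%). That setting left only 3 of the genes in the fit. With the replicate block (background 7.96%) the number went to 3 (Tyrp1, adjusted p = 0.0642, and Pmel, 0.136, lost). The block was fitted to both populations alone, and with these alone and no block it was 4 (background 10.7%). In HFSCs against Thy1- cells it went from 2 to 1 with only both populations in the fit (background 3.72%). With the block it went to 1 (background 1.91%), and it was 1 to 2 over fits that left out a library (background 2.97% to 11.4%). In DETCs against Thy1hi cells it went from 4 to 2 with a mean of at least 50 (background 49.9%). With the block (background 42.4%) it went to 6, in populations where not all same-numbered pairs had r above 0.1. Mitf (0.70, adjusted p = 0.0195) and Ednrb (1.36, 0.0333) were added there. In DETCs against HFSCs the number went from 2 to 1 with a mean of at least 50 (background 51.0%). With the replicate block (background 42.1%) it went to 4 (Pmel and Kitl added). With these populations alone and no block it was 3 (background 33.1%), with Pmel already called. In Thy1hi against Thy1- cells it went from 0 to 1 with DESeq2 (background 1.22%) and to 2 with the replicate block (background 6.61%). Kit in YFP+ cells against HFSCs lost its call with the block (0.132), and Kitl there passed (0.0424). Over all genes and with only both populations in the fit, the block moved the calls in Thy1hi against Thy1- cells from 95 to 1137, in HFSCs against Thy1hi cells from 1838 to 1369 and against Thy1- cells from 640 to 329. The fits of all libraries gave 58, 2300 and 1046.

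No called difference reversed, although some of the settings could not change a difference. Among differences that were not called, Tyr in DETCs minus Thy1hi cells became -0.047 with quantile normalization and -0.22 with the replicate block, and Tyr in Thy1hi minus Thy1- cells became 0.11 with quantile normalization. Tyrp1 in DETCs minus HFSCs became 0.011 with the block. Ednrb in DETCs minus HFSCs became -0.0090 with a pseudocount of 10, -0.16 with quantile normalization, -0.13 with edgeR and -0.11 with DESeq2. Ednrb in Thy1hi minus Thy1- cells became -0.020 with a pseudocount of 10, -0.15 with edgeR and -0.16 with DESeq2. Mitf in YFP+ minus Thy1hi cells became 0.033 with the block. Leaving out a library gave ranges that cross 0 for Tyr (-0.42 to 0.10), Tyrp1 (-0.48 to 0.027) and Ednrb (-0.31 to 0.42) in DETCs minus HFSCs, for Tyr (-0.30 to 0.13), Kit (-0.52 to 0.089) and Ednrb (-0.43 to 0.44) in Thy1hi minus Thy1- cells, and for Dct (-0.15 to 0.39), Pmel (-0.22 to 0.71) and Mitf (-0.30 to 0.10) in YFP+ minus Thy1hi cells. The cause was not tested. Genes with few reads, such as Ednrb, Tyr and Pmel, limit what these libraries can show.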
